A study of Mus musculus with 3 samples.

Results

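The genes described here make the building blocks of DNA and RNA. They are 39 of the 50600 genes counted in mouse T-helper 1 cells. They were chosen by symbol, as the enzymes of purine, pyrimidine and deoxynucleotide synthesis, of serine and mitochondrial or cytosolic folate metabolism, and of nucleotide salvage. The rule used no expression value, although earlier results of these data were known when the genes were chosen. Each symbol was matched to one counted gene through the GENCODE mouse annotation, and all 39 were found: 7 in deoxynucleotide steps, 4 in pyrimidine synthesis, 12 in purine synthesis, 9 in serine and folate metabolism and 7 in salvage and nucleotide phosphorylation.

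A dividing T cell has to copy its genome within hours and therefore needs a large supply of nucleotides. Purines are built atom by atom on a ribose phosphate. Pyrimidines are built as a ring first and joined to the ribose phosphate afterwards. Purine synthesis and the making of thymidylate, a pyrimidine of DNA, draw on folate, the carrier of single carbon units. Folate is loaded from serine in mitochondria and in the cytosol. Ribonucleotide reductase turns finished ribonucleotides into the deoxynucleotides of DNA. Activated T cells are known to raise serine synthesis, mitochondrial folate enzymes and nucleotide synthesis. Salvage enzymes offer a second route, since they recover bases and nucleosides for reuse.

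The study measured RNA in 1 group, T-helper 1 primary cells from C57BL/6NJ mice; T-helper 1 cells are a CD4+ subset known for interferon gamma. There were 3 libraries, labelled biological replicates 1 to 3. The labels give the same donor record for all 3, no sex and no age. The file headers add that the cells were at 72 h, sorted, and that the libraries were paired-end and stranded. The labels say total RNA, whereas the library protocol they link to is named for poly(A)+ RNA. No treated or control group was analysed here, so the values below are levels and their spread between libraries, not responses. Spread between these libraries may be partly technical. In bulk RNA, fewer cells of a type and less RNA per cell cannot be told apart.

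The libraries held 4482916, 266790 and 3733531 counts in replicates 1, 2 and 3, so that replicate 1 was 16.8 times as deep as replicate 2. The 39 genes took 23740, 1231 and 14045 of these counts, or 0.530%, 0.461% and 0.376%. Their median count was 528, 28 and 289. None was at 0 in any library, but 7 of them had fewer than 10 counts in replicate 2. All 5 genes fixed as Th1 markers (Ifng, Tbx21, Il12rb2, Stat4, Il18r1) lay between 24.0 and 604 TPM, and all 4 T cell markers between 18.3 and 222 TPM. Among 9 markers of B cells, macrophages, neutrophils, natural killer cells, erythroid cells and platelets none reached 1 TPM and 8 had 0 counts in every library; Ly6g, a neutrophil marker, had 2, 0 and 3 counts. Of 6 markers of other T cells, Cd8a and Il17a were at 0, while Foxp3, whose exons overlap a gene on the other strand, averaged 64.9 TPM.

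All counts are those of 1 strand, and the strand that was counted may not be the strand of the RNA. The headers record a setting that keeps fragments whose first read lies on the gene's own strand. The mitochondrial genome gives a check: mt-Nd6, its light-strand protein gene, had counts of 18316, 1673 and 13631 in the 3 libraries. Mitochondrial mt-Co1, on the other strand and usually among the most abundant messages, had 10721, 546 and 5027 counts. The strand orientation of the library kit is not given in the sources used here. A gene whose exons overlap exons of a gene on the opposite strand is therefore marked below as overlapped, because its counts cannot be told apart from fragments of its partner. The doubt also covers genes with no overlap, whose counts may likewise come from the strand opposite to their RNA. Levels below, also where called RNA, are levels on the counted strand. Overlapped genes were 16.2% of all genes, and 51.7%, 55.1% and 66.5% of the counts of replicates 1, 2 and 3 fell on them. Of the 39 genes, 12 were overlapped: Umps, Ppat, Gart, Paics, Impdh2, Psph, Shmt1, Shmt2, Mthfd1, Aldh1l2, Tk1 and Uck2.

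All 39 genes averaged at least 1 TPM, a share of the library scaled by gene length. Among all 21764 protein-coding genes 47.8% did. At least 10 TPM was reached by 36 of the 39, against 27.3% of protein-coding genes, and 7 reached 100 TPM, against 4.09% of protein-coding genes. The median of the 39 was 49.9 TPM, against 0.634 TPM for all protein-coding genes and 12.8 TPM for those at 1 TPM or more. In order, the 7 highest were Hprt, Psph, Rrm2, Paics, Shmt2, Impdh2 and Phgdh. Their means ran between 227 ± 91.3 TPM for Hprt and 102 ± 21.9 TPM for Phgdh (here and below ± is the SD, n = 3). Neighbours in this order differed by less than the larger of their SDs. The 3 genes below 10 TPM were Nme2 at 9.09 ± 2.26, Dhodh at 6.62 ± 2.08 and Aldh1l2 at 2.88 ± 0.971 TPM. Of the 39 genes, 25 had their highest TPM in replicate 1 and 30 their lowest in replicate 3. These counts were not taken for all genes, and they depend on the scale. With TPM scaled over genes with no overlap, the median of the 39 was 156, 137 and 150 TPM in replicates 1, 2 and 3. Scaled for library size over all genes, most genes with no overlap were lower in replicate 3 than in replicate 1. Of 3449 averaging at least 100 counts, 9.80% were higher there, and the median log2 ratio was -0.32. With scaling over genes with no overlap alone, that median was -0.085.

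**Figure D1:**
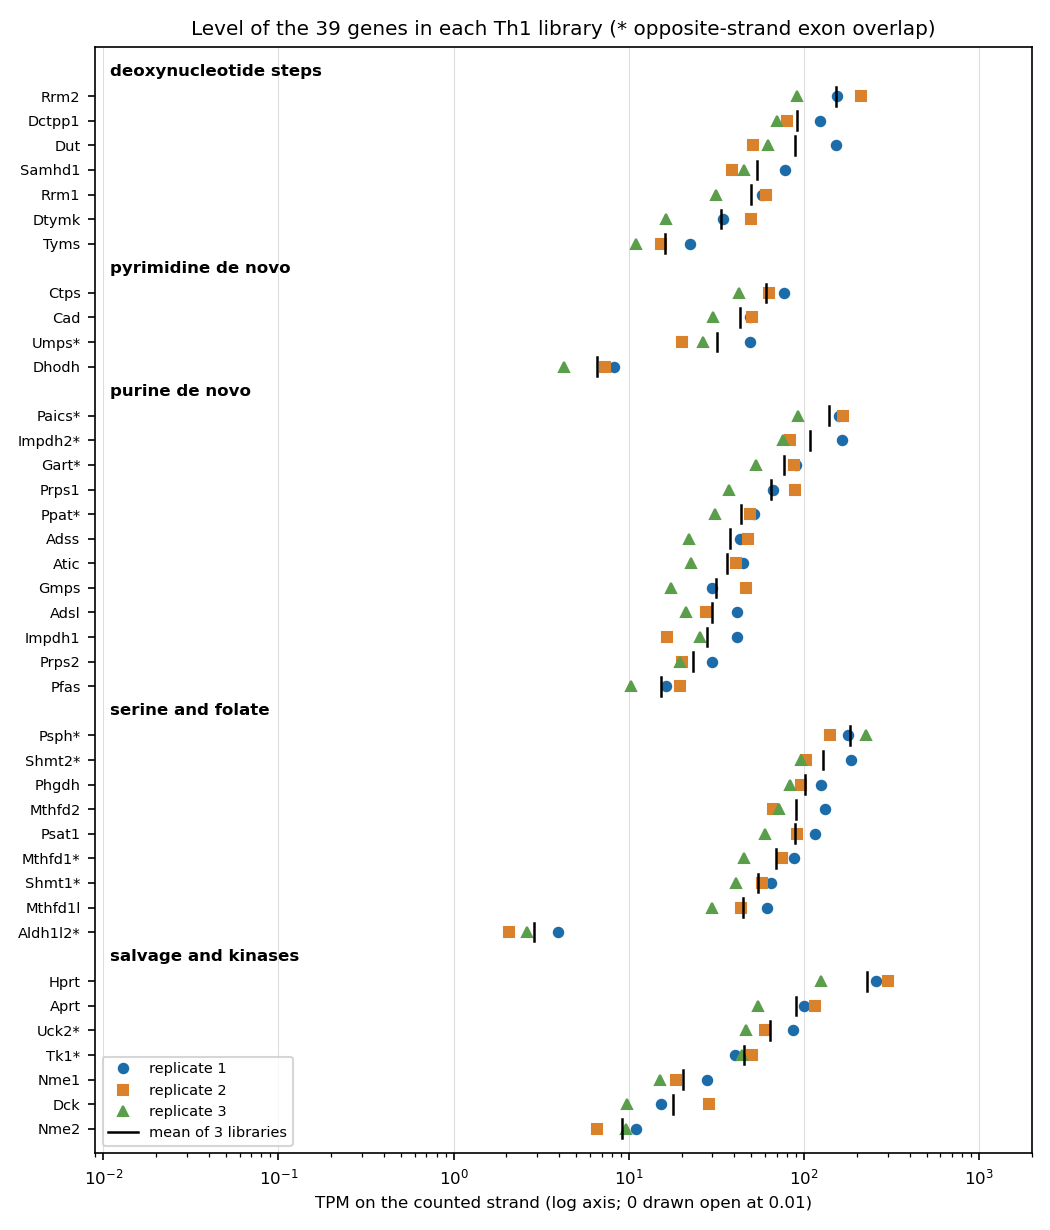
TPM of each of the 39 genes (log axis) in replicates 1, 2 and 3 of the Th1 cells, with the mean as a black bar; genes are grouped by metabolic step and ordered by mean, and a star marks an opposite-strand exon overlap. Aldh1l2, Dhodh and Nme2 lie below 10 on average, and on this scale replicate 3 is the lowest library for 30 of the 39 genes.

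TPM depends on the length by which counts are divided. The deposited length counts every base that lies in any annotated exon of the gene, which exceeds the main transcript by a large factor for some of these genes. Rrm1 has 11012 deposited bases and a principal transcript of 3997 bases; Tk1 has 5198 and 1440 bases. With principal transcript lengths, an alternative chosen after the data were seen, 9 of the 39 means were more than 1.5 times higher and none was more than 1.5 times lower. The largest such changes put Tk1 at 131 ± 15.8 TPM instead of 45.1 ± 5.19 and Dhodh at 16.4 ± 4.73 instead of 6.62 ± 2.08. The median of the 39 genes was then 59.3 TPM and that of protein-coding genes 0.658 TPM. Comparisons between genes below use deposited lengths unless principal lengths are named.

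Promoter sequence is shown for 5 genes of DNA and purine synthesis, so that the region before their starts can be read beside their levels. RefSeq holds a promoter for 36 of the 39 genes (build GRCm38.p6), and 4 motifs were searched on both strands in the 250 bases before each start. The E-box CACGTG, the site of MYC and related factors, lay in 6 of the 36 promoters (16.7%) and in 6.86% of the promoters of 27025 genes. These 6 genes were Atic, Dtymk, Impdh2, Nme1, Paics and Tyms. The CCAAT box lay in 14 of the 36 (38.9%) and in 37.5% of all genes. The E2F-type element TTTNNCGC lay in 4 of the 36 (11.1%) and in 4.94% of all genes. The amino acid response element TGATGNAA lay in 1 of the 36, Prps1 (2.78%), and in 3.91% of all genes. One stretch of bases may match more than 1 motif. Each line below holds 70 bases, 5′ to 3′ on the strand of the gene, with the match in capitals. Rrm1 and Rrm2 encode the subunits of one enzyme and each shows its CCAAT box. Atic, Dtymk and Tyms show the E-box. Windows with many bases in annotated exons are not printed, which left out Impdh2, Nme1 and Paics.
Rrm1, chr7:102441620-102441689, plus strand: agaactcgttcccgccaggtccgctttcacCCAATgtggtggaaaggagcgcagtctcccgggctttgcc
Rrm2, chr12:24708174-24708243, plus strand: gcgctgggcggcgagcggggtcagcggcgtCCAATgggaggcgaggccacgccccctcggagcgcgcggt
Atic, chr1:71557086-71557155, plus strand: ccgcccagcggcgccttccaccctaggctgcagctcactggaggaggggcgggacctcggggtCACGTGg
Dtymk, chr1:93802043-93802112, minus strand: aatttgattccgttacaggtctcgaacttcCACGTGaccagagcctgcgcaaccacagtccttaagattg
Tyms, chr5:30073647-30073716, minus strand: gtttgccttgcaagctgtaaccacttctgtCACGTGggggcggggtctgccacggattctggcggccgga
The CCAAT box began 45 bases before the start of Rrm1, which holds a second match further upstream, and 50 bases before the start of Rrm2. Starts are those of RefSeq and can differ from the annotated gene coordinates: in GENCODE the first exon of Atic already covers 6 of the 70 bases shown. Annotated exons also cover 3 bases of the Rrm2 window. The E-box began 7 bases before the RefSeq start of Atic, 61 before that of Tyms and 148 before that of Dtymk. A match describes these letters only, and no binding was measured.

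Serine and folate genes had the highest median of the 5 steps in each library. It was 115, 74.9 and 59.6 TPM in replicates 1, 2 and 3, against 78.1, 51.4 and 45.5 TPM for the deoxynucleotide genes, the next step on average. With principal transcript lengths the same order held in every library, at 129, 88.4 and 80.4 TPM against 124, 71.9 and 63.6 TPM. The mean over libraries of the serine and folate genes had a median of 88.5 TPM, and of 89.1 TPM among the 4 with no overlap. With 3 libraries, an exact two-sided sign-flip test cannot give a p below 0.25, so this order is given as a description. The medians of the other steps were 54.2 TPM for deoxynucleotide steps, 45.1 TPM for salvage and kinases, 37.6 TPM for pyrimidine synthesis and 36.9 TPM for purine synthesis. The salvage and kinase median was 20.5 TPM without its 2 overlapped genes.

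The serine branch was read from Phgdh, Psat1 and Psph, which convert a glycolytic intermediate to serine in that order. Phgdh, on chromosome 3 at 98313170 to 98339990, encodes the first and committed enzyme and had 126, 96.5 and 82.8 TPM in replicates 1, 2 and 3. Psat1, the aminotransferase of the second step on chromosome 19 at 15904678 to 15947337, had 115, 91.0 and 59.6 TPM. Both genes have no overlap and were close to each other in each library: the log2 ratio of Psat1 over Phgdh was -0.13, -0.09 and -0.47, and its mean of -0.23 ± 0.21 became 0.08 ± 0.21 with principal lengths. The direction between these neighbouring steps therefore depends on the length used. Psph, the phosphatase of the last step, had 177, 141 and 227 TPM. It was the only one of the 39 genes with its highest TPM in replicate 3, a count that depends on the scale. With TMM scaling, described below, 3 of the 39 genes were highest there. Psph shares 452 exon bases with Cct6a, a chaperonin subunit gene on the other strand that averaged 237 ± 80.5 TPM. The level of Psph cannot be told apart from fragments of Cct6a. Pseudogenes close to Phgdh exist: Gm7901, which aligned at 98.7% identity over 1597 bases, had 31, 0 and 13 counts, against 653, 31 and 419 for Phgdh, so reads shared between them could be split.

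In the folate branch the mitochondrial Shmt2 stood above its cytosolic partner in every library, whereas Mthfd2 and its cytosolic partner were close. Shmt2, the mitochondrial serine hydroxymethyltransferase that loads folate with the carbon of serine, had 185, 102 and 96.0 TPM. Shmt1, the cytosolic form, had 65.0, 57.8 and 40.8 TPM. On the log2 scale Shmt2 over Shmt1 was 1.504, 0.81 and 1.23, a mean of 1.18 ± 0.35 that was the same with principal lengths. Both are overlapped, Shmt2 by 32 bases with Ndufa4l2, which averaged 0.594 TPM, and Shmt1 by 184 bases with Smcr8 at 16.8 TPM. Mthfd2, the mitochondrial dehydrogenase and cyclohydrolase of the next step, had 131, 66.6 and 71.5 TPM. Its isoenzyme Mthfd2l had 11, 0 and 2 counts, against 955, 30 and 508 counts for Mthfd2. The log2 ratio of Mthfd2 over Mthfd2l was 7.31, 6.86 and 8.60 with 0.5 added to each count, and the value for replicate 2 rests on that added count. Its mean was 7.59 ± 0.90, and 6.71 ± 0.90 with principal lengths. Mthfd2 over Mthfd1, the cytosolic enzyme with 3 activities, was the 1 pair of 20 with mixed signs: 0.59, -0.16 and 0.65, a mean of 0.36 ± 0.45. With principal lengths all 3 values were positive, at 0.65 ± 0.45 on average.

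At the end of the mitochondrial folate path, RNA of the formate-releasing enzyme was above RNA of the competing oxidising enzyme. Mthfd1l, which releases formate for use in the cytosol, had 61.1, 43.6 and 30.0 TPM. Aldh1l2, which instead oxidises the same carbon to carbon dioxide, had 3.95, 2.06 and 2.62 TPM and was the lowest of the 39 genes. It rests on 62, 2 and 40 counts, and 1056 of its exon bases overlap D10Wsu102e, a gene at 1.38 ± 0.191 TPM. The deposited length of D10Wsu102e is 123179 bases, and it had 413, 20 and 324 counts, more than Aldh1l2 in each library. Mthfd1l over Aldh1l2 on the log2 scale was 3.94, 4.11 and 3.50, and with principal lengths the mean was 3.80 ± 0.31. Mthfd1, which uses the formate in the cytosol, averaged 69.2 ± 21.4 TPM.

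In the deoxynucleotide steps Rrm2 was highest. Rrm2, on chromosome 12 at 24708241 to 24714146, encodes the small subunit of ribonucleotide reductase that carries the radical and is made in S phase. It had 154, 212 and 91.1 TPM. Rrm1, the large catalytic subunit on chromosome 7 at 102441695 to 102469771, had 57.7, 60.4 and 31.6 TPM. Rrm2 over Rrm1 on the log2 scale was 1.42, 1.81 and 1.53, the narrowest spread of the 3 pairs that hold Rrm2. Most of its size came from the deposited length of Rrm1: with principal lengths it was 0.30, 0.69 and 0.40, still above 0 in every library. Rrm2b, the alternative small subunit used outside S phase and after DNA damage, had 59, 0 and 34 counts, against 895, 76 and 514 for Rrm2. Rrm2 over Rrm2b was 5.13 and 5.11 on the log2 scale in the deep replicates 1 and 3. Replicate 2 had no Rrm2b count.

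Breakdown and cleaning of deoxynucleotides were also read. Samhd1, the phosphohydrolase that breaks deoxynucleotides down, had 78.1, 38.9 and 45.5 TPM. Rrm2 over Samhd1 was 0.98, 2.44 and 1.00 on the log2 scale with deposited lengths, and 0.10, 1.56 and 0.12 with principal lengths. With the shorter length the ratio in replicates 1 and 3 was thus close to 0. Dut, which hydrolyses dUTP so that uracil is kept out of DNA, had 152, 51.4 and 61.9 TPM, from 767, 16 and 304 counts. It had the largest ratio between libraries of the 39 genes. Its mean of 88.5 TPM was 56.7 TPM without replicate 1, and no other mean moved by more than 1.5 times when a library was left out. Dctpp1, which removes modified dCTP, averaged 91.5 ± 28.4 TPM. Dtymk, the thymidylate kinase, averaged 33.5 ± 16.9 TPM.

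Thymidylate can be made or salvaged, and the salvage gene had the higher RNA level. Tyms, the thymidylate synthase that methylates dUMP with a folate carbon, had 22.2, 15.3 and 11.05 TPM and was the lowest of the deoxynucleotide genes. Tk1, the cytosolic thymidine kinase of S phase, had 40.3, 50.6 and 44.5 TPM. The log2 ratio of Tyms over Tk1 was -0.86, -1.69 and -2.01 and averaged -2.43 ± 0.59 with principal lengths. Tk1 shares 83 exon bases with Afmid on the other strand, which averaged 20.6 ± 4.26 TPM. Tk2, the mitochondrial kinase, had 41, 0 and 24 counts, against 438, 34 and 471 for Tk1, and the log2 ratio of Tk1 over Tk2 was 2.86, 5.57 and 3.72, or 5.33 ± 1.38 on average with principal lengths. The largest of these values came from the library in which Tk2 had no count.

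The pyrimidine genes were Cad, Dhodh, Umps and Ctps, in the order of the pathway. Cad, a single protein with the first 3 activities, had 49.4, 50.1 and 30.2 TPM. Dhodh, the mitochondrial dehydrogenase of the next step, had 8.24, 7.34 and 4.27 TPM from 109, 6 and 55 counts, the lowest level of this pathway in every library. Umps, which completes UMP, had 49.1, 19.99 and 26.5 TPM. It shares 213 exon bases with the antisense gene Gm15829, which averaged 470 ± 148 TPM. Cad and Umps differed little: the log2 ratio was 0.01, 1.26 and 0.19, a mean of 0.48 ± 0.68 whose spread exceeds its size. Ctps, which aminates UTP to CTP and is needed by dividing lymphocytes, had 76.6, 63.0 and 42.5 TPM. Its isoenzyme Ctps2 had 12.9, 4.92 and 6.45 TPM. Ctps was higher in each library, at 2.57, 3.48 and 2.71 on the log2 scale, and at 2.72 ± 0.49 with principal lengths.

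Purine synthesis starts with the sugar. Prps1 and Prps2 make the activated ribose phosphate, and Prps1 had 66.7, 89.3 and 37.5 TPM, against 30.0, 19.98 and 19.5 TPM for Prps2. On the log2 scale Prps1 over Prps2 was 1.15, 2.12 and 0.94. Ppat, which commits the sugar to purines, had 51.9, 49.0 and 30.9 TPM. Paics, a 2-activity enzyme further down, had 159, 168 and 92.6 TPM and was the highest purine gene with deposited lengths. Ppat lies head to head with Paics on chromosome 5: Ppat runs on the minus strand over 76913249 to 76951578, Paics on the plus strand over 76951307 to 76967509, and their exons share 272 bases. Between replicate 3 and replicate 1 both moved alike, by -0.28 and -0.31 on the log2 scale, close to the genes with no overlap. Gart, with 3 of the ring-building activities, averaged 76.7 ± 20.2 TPM and overlaps Gm15964, an antisense gene at 757 ± 211 TPM. Atic, Adsl and Pfas, which act between and after these, averaged 36.1 ± 11.9, 29.9 ± 10.3 and 15.4 ± 4.65 TPM. Pfas was the lowest purine gene.

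Past IMP the pathway splits toward GMP and AMP. Impdh2, the inducible IMP dehydrogenase of lymphocytes, had 165, 83.0 and 76.0 TPM. Impdh1 had 41.4, 16.4 and 25.5 TPM. Impdh2 was higher in each library, with log2 ratios of 2.00, 2.26 and 1.57 and a mean of 2.33 ± 0.35 with principal lengths; it overlaps Ndufaf3 by 48 bases. A pseudogene, Impdh2-ps, aligned at 99.7% identity over 1545 bases and had 10, 0 and 7 counts, against 1064, 33 and 476 for Impdh2. Gmps, the next enzyme toward GMP, averaged 31.4 ± 14.7 TPM, and Adss, the first toward AMP, 37.6 ± 13.7 TPM. Gmps over Adss was -0.52, -0.04 and -0.34 on the log2 scale, and -1.01 ± 0.24 with principal lengths. Its sign was the same in each library, but its size moved with the length. Adssl1, the muscle form of the AMP enzyme, had 7, 0 and 1 counts, against 407, 28 and 204 for Adss.

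Hprt was the highest salvage gene, and the highest of the 39 by the mean of 3 libraries with deposited lengths. This X-linked gene, at 52988137 to 53021659, returns hypoxanthine and guanine to nucleotides, and it had 257, 300.2 and 125 TPM from 692, 50 and 328 counts. Its deposited length equals that of its principal transcript, and with principal lengths for all genes it averaged 181 ± 69.4 TPM, below the overlapped Psph at 366 ± 96.8 TPM. Without replicate 2 Hprt averaged 191 TPM and Psph 202 TPM. Ppat over Hprt was -2.31, -2.60 and -2.02 on the log2 scale, so RNA of the first committed enzyme of synthesis lay below that of Hprt in every library, also with principal lengths (-2.16 ± 0.29). Aprt, which salvages adenine, had 99.5, 115 and 54.7 TPM. Its log2 ratio to Hprt had the smallest spread of all 20 pairs, -1.31 ± 0.10, and -0.38 ± 0.10 with principal lengths. Uck2, the uridine and cytidine kinase, averaged 64.3 ± 20.6 TPM and overlaps the noncoding Gm2453 by 150 bases. Dck, which phosphorylates deoxycytidine, had 15.2, 28.7 and 9.74 TPM.

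Nme1 and Nme2, neighbouring nucleoside diphosphate kinase genes on chromosome 11, averaged less than the salvage and kinase median of 45.1 TPM. Dck, at 17.9 TPM on average, lay between them. Nme1 had 27.9, 18.5 and 15.0 TPM. Nme2 had 11.03, 6.61 and 9.64 TPM from 27, 1 and 23 counts. Both share bases on the same strand with Gm20390, an annotated gene that spans both: 418 of 3342 bases of Nme1 and 573 of 1171 bases of Nme2. By default the counter drops fragments that fit more than 1 gene, and Gm20390 had 0 counts in every library. Divided by the unshared bases alone, Nme2 averaged 17.8 ± 4.42 TPM and Nme1 23.4 ± 7.63 TPM. The log2 ratio of Nme2 over Nme1 was -0.97 ± 0.35 with deposited lengths, with 1 sign in every library, and -0.20 ± 0.35 with unshared lengths, with mixed signs. The difference between the genes thus rests on how shared bases are treated. Nme2 also has pseudogenes, of which Gm7730 (97.8% identity over 457 bases) had 13, 0 and 14 counts.

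Across the 20 pairs, 19 had 1 sign in all 3 libraries. Of these, 13 were above 0 and 6 below. In 14 pairs the mean lay beyond 1 log2 unit, a ratio of 2. All 11 pairs in which neither gene is overlapped had 1 sign. With principal lengths 19 pairs again had 1 sign, and in 18 the sign was the same with both lengths. The exceptions were Psat1 over Phgdh, whose mean turned, and Mthfd2 over Mthfd1. Within 1 library both genes of a pair share depth and handling, and the smallest p that signs in 3 libraries can give is 0.25, so these are descriptions of order.

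**Figure D2:**
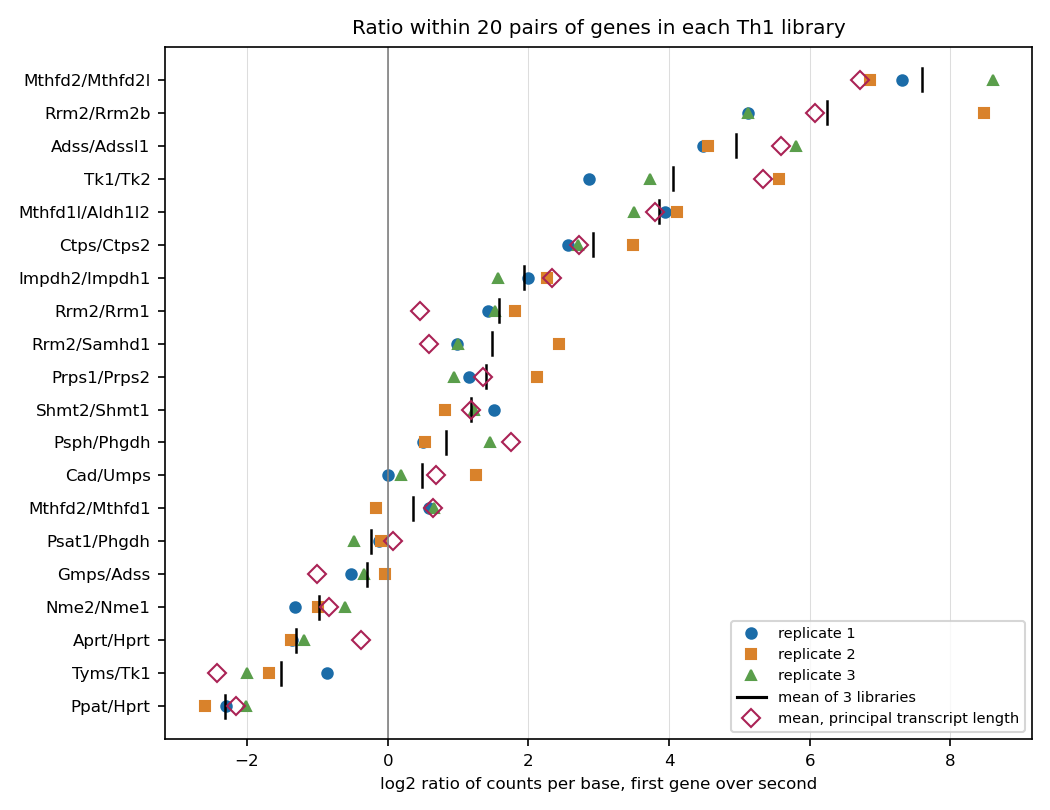
Log2 ratio of counts per base, first gene over second, in replicates 1, 2 and 3 for each of 20 pairs, with the mean as a black bar and the mean with principal transcript lengths as an open diamond. The pairs run between Mthfd2 over Mthfd2l at 7.59 and Ppat over Hprt at -2.31, and only Mthfd2 over Mthfd1 has libraries on both sides of 0 with deposited lengths.

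The libraries differed from each other by more than counting error for many of these genes. Scaled by TMM, a normalization that assumes most genes are alike, 29 of the 39 passed a chi-square test of equal rates over the 3 libraries with Benjamini-Hochberg adjustment over 11595 genes, of which 55.5% passed. With a further demand, a ratio of at least 2 between the highest and the lowest library, 6 of 39 were called: Dut, Umps, Impdh1, Dtymk, Dck and Psph. Of all genes tested 32.2% were called by the same rule, and the difference between these shares was not tested. The called genes were highest in different libraries. Dut, Umps and Impdh1 were highest in replicate 1, as were 7.59% of all genes tested (called and highest there). Dtymk and Dck were highest in replicate 2, against 10.5% of all genes. Psph was highest in replicate 3, against 14.1% of all genes. Dut had the largest ratio, 2.90, with an adjusted p of 1.22e-18 in the chi-square test, and Psph the smallest adjusted p, 3.48e-69, at a ratio of 2.18. These tests compare libraries, not conditions. The calls depend on which libraries enter. Without replicate 2, the shallow library, the chi-square test called none of the 39, with Psph nearest at a ratio of 1.92. By the same rule 14.9% of all genes tested were called. At any ratio, 23 of the 39 had an unadjusted p under 0.05 and 20 an adjusted p under 0.05. The share of all genes at these looser rules was not computed without replicate 2. Without replicate 1 the chi-square test called 3 (Dck, Dtymk and Psph, against 18% of all genes). Without replicate 3 it called 2 (Dut and Umps, against 11.8% of all genes). When genes with an opposite-strand overlap were left out of scaling and test, 1 of 27 was called, against 17.3% of 6933 genes. That gene was Dut, at a ratio of 2.84 and an adjusted p of 1.94e-10 in the chi-square test.

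Overlap on the opposite strand moved with the difference between replicates 3 and 1. Among genes with at least 100 counts on average in these libraries, the 3011 overlapped ones had a median log2 ratio of replicate 3 over replicate 1 of 0.56, and 64.9% were higher in replicate 3. The 3449 with no overlap had a median of -0.32, and 9.80% were higher in replicate 3. These ratios use TMM scaling over all genes, and their position relative to 0 depends on it. With TMM scaling over genes with no overlap, the medians were 0.79 for overlapped genes and -0.085 for those with no overlap. The values that follow use scaling over all genes. The 27 genes described here with no overlap had a median of -0.39 and ranged between -0.83 for Dut and 0.28 for Nme2. Among the 12 overlapped ones, 10 lay between -0.65 and -0.12, as the genes with no overlap did, while Psph at 0.83 and Tk1 at 0.61 stood apart. Psph had 1606, 79 and 2000 counts and Tk1 had 438, 34 and 471 counts, more in replicate 3 than in the deeper replicate 1. Cct6a, the partner of Psph, was at -0.29 and Afmid, the partner of Tk1, at 0.93. Whether the counts of Psph and Tk1 hold fragments of the other strand was not tested. As a share of counts in genes with no overlap, the 27 genes took 0.666%, 0.650% and 0.615% in replicates 1, 2 and 3, a narrower range than their share of all counts.

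**Figure D3:**
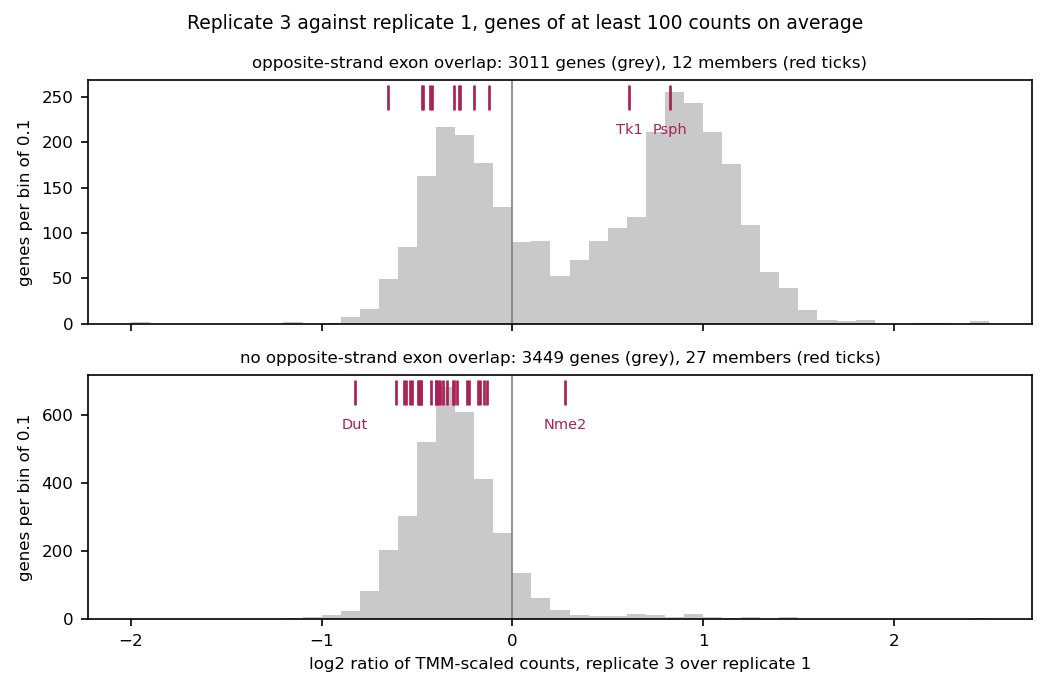
Log2 ratio of TMM-scaled counts in replicate 3 over replicate 1 for genes of at least 100 counts on average, with an opposite-strand exon overlap (top, 3011 genes) and without (bottom, 3449 genes); grey bars count genes per bin of 0.1 and red ticks are the 39 genes. Overlapped genes form a mode on each side of 0, with Psph and Tk1 in the right one. Scaled over all genes, as drawn, genes with no overlap lie mostly left of 0.

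Other genes of the same pathways were lower. Of 61 listed, 60 were matched, and of these 43 averaged at least 1 TPM, 23 at least 10 TPM, and the median was 7.63 TPM. Overlap on the opposite strand held for 15. Of 40 tested between libraries 14 were called, against 32.2% of all genes tested. The 5 with 0 counts in each library were Prps1l1, the testis form of the sugar enzyme, Gda and Cda, which deaminate guanine and cytidine, and the pyrimidine breakdown genes Upp2 and Dpyd. Xdh, which makes uric acid, had 88, 0 and 28 counts, and Upp1, of pyrimidine breakdown, had 4, 0 and 2. The deaminases Ampd2 and Ada were higher, at 22.1 ± 6.44 and 9.27 ± 1.41 TPM; Ampd2 is overlapped.

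Among these other genes, some of purine return, serine transport and methyl donor supply reached the levels of the 39. Gmpr2, which returns GMP to IMP, had 143, 60.2 and 148 TPM. In the folate and serine list, Sfxn1, the mitochondrial serine transporter, had 80.3, 85.4 and 47.5 TPM. Ahcy, which clears the product of methylation, averaged 63.8 ± 14.4 TPM, and Mat2a, which makes the methyl donor, 71.7 ± 34.1 TPM, with 508 bases shared with Particl on the other strand. Cth and Gcsh had the widest spreads: Cth, of cysteine synthesis, had 25.7, 83.2 and 15.1 TPM from 150, 30 and 86 counts, and Gcsh, of glycine cleavage, 41.2, 108 and 27.4 TPM. Gldc, which acts with Gcsh, had 2, 0 and 1 counts. Srr, the serine racemase, was listed highest at 489 ± 84.4 TPM, but 1240 of its exon bases lie opposite Tsr1, and it was higher in replicate 3 than in replicate 1 by 0.96 on the log2 scale, as Psph was. Its level cannot be told apart from fragments of the other strand.

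**Figure D4:**
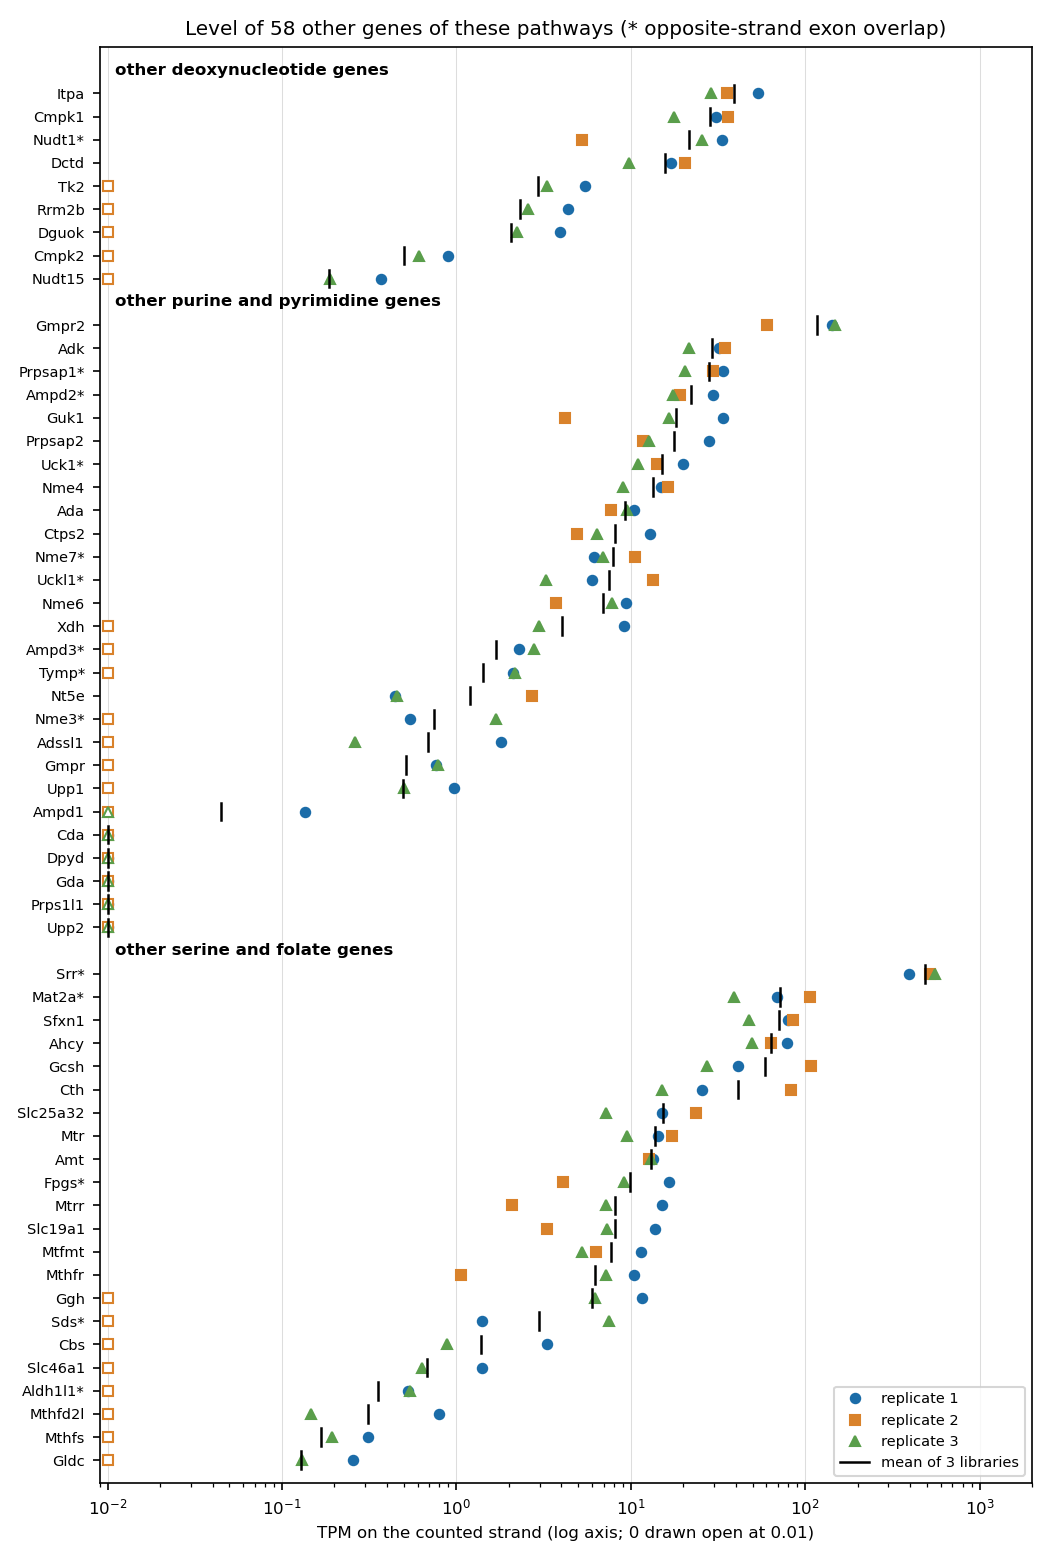
TPM of 58 of the 60 other genes of the nucleotide, serine and folate pathways (log axis, 0 drawn open at 0.01) in replicates 1, 2 and 3, with the mean as a black bar and a star for an opposite-strand exon overlap. Of those drawn, Srr and Gmpr2 lie above 100 TPM on average, 5 genes are at 0 in every library, and replicate 2, the shallow library, holds most of the other zeros.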

How the data were processed

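RNA was measured in 3 Th1 libraries, and the deposited files hold raw counts per gene. Per the file headers, the authors counted fragments over exons with featureCounts 1.4.6-p4 at strand setting 1, both ends mapped, on mm10 with GENCODE mouse release 13. The aligner version is not given in the sources used here. Gene names and principal transcripts came from GENCODE mouse release 21 (GRCm38), in which 50376 of 50600 identifiers matched. Exon overlaps were computed from the exon coordinates deposited with the counts. No value column was left unused (0).

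TPM was computed from the counts and the deposited exon lengths. With 1 group there is no contrast, so edgeR 4.0.16 gave TMM scaling only and its quasi-likelihood test was not used. Genes averaging at least 10 counts were tested for equal rates between libraries with a chi-square test and Benjamini-Hochberg adjustment, and called at an adjusted p under 0.05 and a ratio of at least 2, with counts under 3 set to 3. DESeq2 1.42.0 size factors were an alternative. Pair ratios used counts plus 0.5 per base. In a gene of 2000 bases, 3 counts correspond to 0.717, 11.6 and 0.737 TPM in replicates 1, 2 and 3. Near-identical copies were searched with blastn 2.17.0 at 97% identity or more over at least 100 bases. The chi-square procedure was tried on simulated counts. Python 3.11.15, scipy 1.17.1 and R 4.3.3 were used.

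The 39 genes, the lists and the pairs were chosen with earlier results of these data known. Genes were named if they were among the 39, in the lists of other pathway genes or pairs, or overlapped one of these; full values were given to the highest, the lowest and the paired genes of each step. Pseudogenes were named after the search for copies. A few genes of the lists are counted but not reported here by name or drawn.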

Additional observations from a re-analysis of the deposited data

How the results depend on the processing

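All 39 genes reached 1 TPM and 36 to 38 reached 10 TPM under every setting run on all 39, while levels moved by construction with the scale. Scaled over genes with no opposite-strand overlap, the median of the 39 genes was 146 TPM, and the step medians were 162 (deoxynucleotide), 111 (pyrimidine), 107 (purine), 259 (serine and folate) and 139 (salvage). As TMM-scaled CPM per kilobase they were 24.1, and 26.7, 18.4, 17.8, 42.9 and 22.7 in the same order of steps. With principal transcript lengths, chosen after the data were seen, the deoxynucleotide median was 87.0 and the salvage median 59.2 TPM; Psat1 over Phgdh turned to 0.076. Without overlapped genes the salvage median was 20.5 TPM, and 11 of 11 pairs had 1 sign. The count of the 39 genes called between libraries was 6, against 1 with scaling and test on genes with no overlap (17.3% of such genes), 17 at a ratio of 1.5 (47.8% of all genes tested), and 0 to 3 with a library left out (11.8% to 18% of all genes). It was 5 with DESeq2 size factors (31.9% of all genes) and 9 with library totals (35.4%). Dut stayed called in each of these but without replicate 1 and without replicate 2. The cause of these changes was not tested.

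Leaving out a library kept the sign of all 20 pair means. No paired analysis was possible because there was 1 group. Replicate 2 limits depth: 7 of the 39 genes had fewer than 10 counts there.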
